A study of Homo sapiens with 5 samples.

Results

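The genes described here encode the tripartite motif (TRIM) proteins, and were taken as the protein-coding genes of GENCODE release 29 whose symbol is TRIM followed by a digit, matched by Ensembl identifier. GENCODE lists 78 such genes. The values cover 68 of them, out of 30631 genes in all, and the other 10 were not analysed here (TRIM39-RPP21, TRIM42, TRIM49D1, TRIM51, TRIM51GP, TRIM6-TRIM34, TRIM60, TRIM64, TRIM64C and TRIM77). Of the 68 genes, 38 reached 1 FPKM (reads scaled for transcript length and library depth) in at least 2 libraries and were tested, and 30 did not.

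Messenger RNA was sequenced from COV434 cells, which the labels call a human ovarian granulosa tumour line, in 3 libraries of cells given 3-nitropropanoic acid (3-NP) and 2 libraries of control cells. 3-NP is an irreversible inhibitor of succinate dehydrogenase, the enzyme shared by the citric acid cycle and the respiratory chain. Neither group carries a named genetic change, and dose, exposure time and the treatment of control cells are not stated in the labels. Every title reads COV434, although only 1 sample has that name in its cell line field, where the others carry names numbered after it.

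Most TRIM proteins carry a RING finger, a B-box zinc finger and a coiled coil in that order. The RING finger binds an E2 enzyme charged with ubiquitin, and the domain at the carboxyl end (a PRY-SPRY domain in the largest group) recognises the target. Many of the genes are induced by interferon and their products act against viruses or tune the sensors of viral nucleic acid, while others organise microtubules or silence chromatin.

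The libraries held between 17838000 and 18883000 reads, worked out from the FPKM values, so depth differed little between the groups. Of 8 granulosa markers, FOXL2, NR5A1, GATA4 and AMH were tested, while FSHR, CYP19A1 and AMHR2 were at or near 0 and INHA reached at most 0.512 FPKM, so the labelled cell type was borne out by only part of its markers. FOXL2, an ovarian transcription factor, was at 2.71, 2.5 and 2.33 FPKM in 3-NP libraries, against 5.5 and 6.9 FPKM in control libraries (log2 change -1.03, limma adjusted p = 0.00236). SMARCA4, the chromatin remodelling ATPase, was at 8.47, 5.45 and 6.04 FPKM in 3-NP libraries and at 12.5 and 12.8 FPKM in control libraries (log2 change -0.85, adjusted p = 0.0104). SMARCA2, its paralog, did not pass the test (log2 change -0.42, adjusted p = 0.107). The markers of leukocytes, endothelium, muscle and epithelium with values here were all under 1 FPKM in every library, and none was tested (CD3E, CD68 and MYH7 were not analysed here). Summed leukocyte markers were 0.0878, 0.453 and 0.33 FPKM in 3-NP libraries, against 0.152 and 0.13 FPKM in control libraries, and summed epithelial markers were 0.101, 0.411 and 0.477 FPKM in 3-NP libraries, against 0.338 and 0.298 FPKM in control libraries. Endothelial and muscle sums did not overlap between the groups and were higher in 3-NP libraries. The groups also did not overlap for 64.2% of all genes tested. Not every marker followed its sum. The muscle marker ACTA1 was at 0, 0.0717 and 0.0355 FPKM in 3-NP libraries, against 0.143 and 0.075 FPKM in control libraries. The summed endothelial markers were 0.454, 0.277 and 0.263 FPKM in 3-NP libraries, against 0.164 and 0.125 FPKM in control libraries. The summed muscle markers were 0.601, 0.656 and 1.02 FPKM in 3-NP libraries, against 0.186 and 0.162 FPKM in control libraries, and the part of these markers in the TRIM values was not tested.

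TRIM transcripts were a small part of the RNA, and their summed level was lower in 3-NP cells. The 68 genes summed to 218.3, 226.4 and 226.2 FPKM in the 3-NP libraries, against 359.3 and 355.8 FPKM in the control libraries. That was 0.0767%, 0.0774% and 0.0755% of all FPKM in the 3-NP libraries, against 0.137% and 0.127% in the control libraries, and the groups did not overlap. In bulk RNA, fewer cells of a type and less RNA per cell cannot be told apart.

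The 3 most abundant members were TRIM8, TRIM28 and TRIM58, and together they made up 42.2%, 37.4% and 39.1% of the family's FPKM in the 3-NP libraries, against 40.5% and 42.2% in the control libraries. TRIM8 (ENSG00000171206, chr10:102642310-102660680, GRCh38), which adds ubiquitin chains in tumour necrosis factor signalling, was at 32.3, 33.1 and 33.3 FPKM in 3-NP libraries and at 52.0 and 57.3 FPKM in control libraries. TRIM28 (ENSG00000130726, chr19:58544091-58550722), the co-repressor recruited by zinc-finger proteins with a KRAB domain, was at 30.2, 28.5 and 36.2 FPKM in 3-NP libraries and at 46.0 and 52.8 FPKM in control libraries. TRIM58 (ENSG00000162722, chr1:247857199-247878205), which in mouse red cell precursors drives the loss of the motor protein dynein, was at 29.6, 23.0 and 19.0 FPKM in 3-NP libraries and at 47.4 and 39.9 FPKM in control libraries. All 3 were lower in every 3-NP library than in either control library. Among themselves they ran TRIM8, TRIM28, TRIM58 by mean, and TRIM8 and TRIM28 overlapped in the 3-NP libraries and in the control libraries, so their order is within the spread. The same held for TRIM28 and TRIM58, whereas TRIM8 and TRIM58 did not overlap in either group. TRIM25 came next, at a mean of 15.2 FPKM in 3-NP libraries and 19.4 FPKM in control libraries. In all, 4 members averaged 10 FPKM or more over the 5 libraries, 33 averaged 1 to 10 FPKM and 31 averaged less than 1 FPKM.

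**Figure D1:**
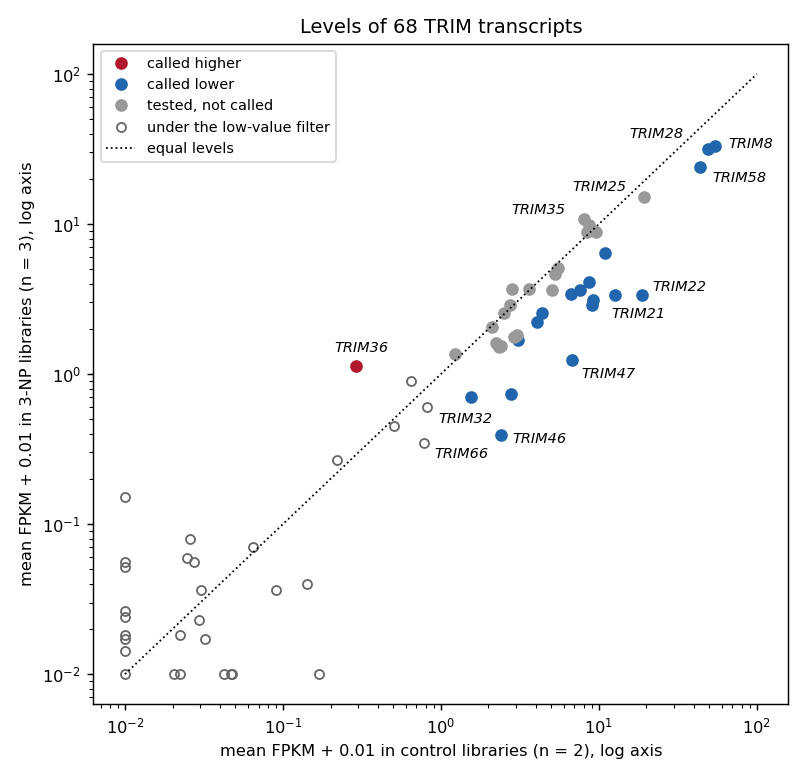
Mean level of each of the 68 TRIM genes, with control libraries (n = 2) on the horizontal axis and 3-NP libraries (n = 3) on the vertical axis, both as FPKM + 0.01 on log axes. The dotted line marks equal levels, and the 18 genes called lower in 3-NP lie below it while TRIM36, the gene called higher, lies above it.

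Of the 38 genes tested, 18 were lower in 3-NP cells at an adjusted p under 0.05 (47.4%) and 1 was higher (2.63%), by limma on log2(FPKM + 1). Over all 11858 genes tested, 25.2% were called lower, 15.5% higher and 40.8% either way. The median log2 change was -0.52 over the TRIM genes tested, beside -0.11 over all genes tested. Of all calls in the comparison 61.89% were lower, and this share was 50.1% with median-of-ratios scaling and 49.91% with the trend on gene length removed, each of which moved the median of all genes by 0.11. Relative to the median of all genes in the same setting, the TRIM median was -0.41 as reported, -0.43 with median-of-ratios scaling and -0.32 with the length trend removed. The TRIM calls were 18 lower and 2 higher with median-of-ratios scaling, and 16 lower and 2 higher with the length trend removed. With no low-value filter, where 67 TRIM genes were fitted, this difference was only -0.05. The TRIM median was then -0.057 and that of all genes -0.005. TRIM6, TRIM46 and TRIM59, all called lower, passed the low-value filter only through the control libraries, and TRIM36 passed it only through the 3-NP libraries, so a difference was built into their selection.

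The libraries of the groups did not overlap for 27 of the 38 genes (71.1%), against 64.2% of all genes tested. Of the 27, 25 were lower and 2 (TRIM35 and TRIM36) were higher in 3-NP cells. Of the 18 genes called lower, 10 had a mean FPKM in control libraries at least 2 times that in 3-NP libraries. Of these, 7 had a fitted log2 change of -1 or below on the log2(FPKM + 1) scale, which understates the change of low genes. TRIM6, TRIM46 and TRIM59, which passed the low-value filter only through the control libraries, are among the 10. TRIM6 and TRIM46 are also among the 7. The share of all genes tested with changes of these sizes was not worked out.

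**Figure D2:**
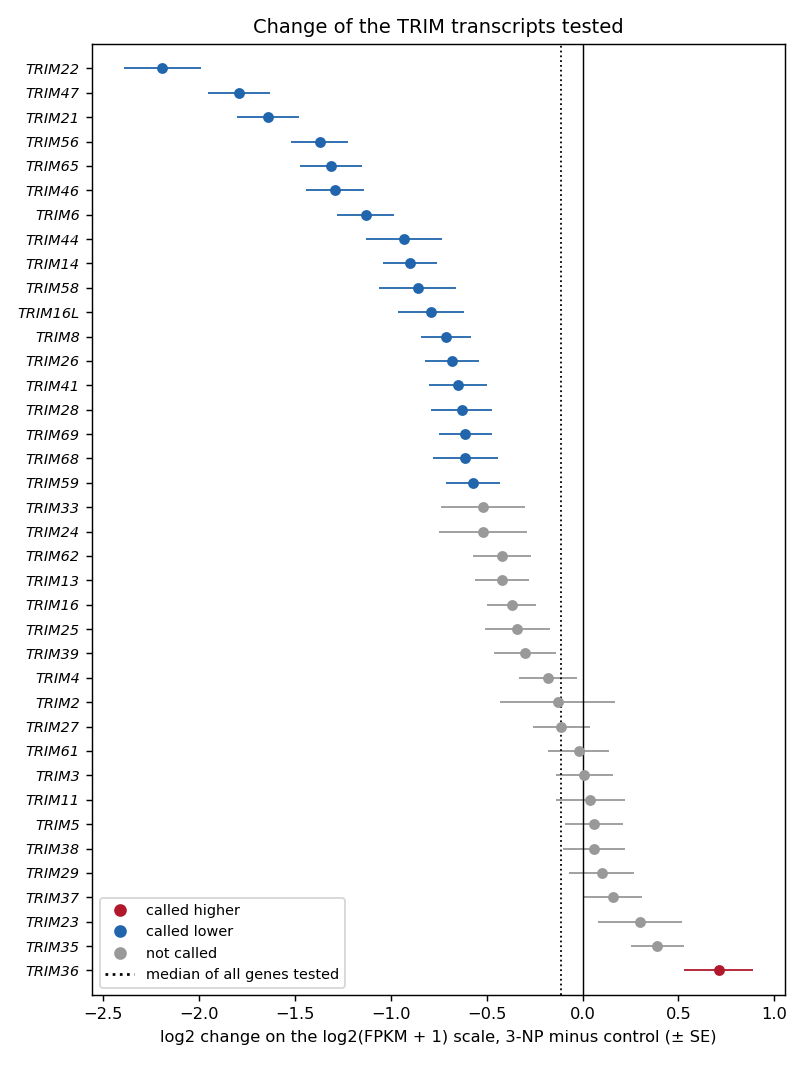
Fitted log2 change of the 38 TRIM genes tested, 3-NP minus control, on the log2(FPKM + 1) scale, with bars of 1 standard error and the dotted line at the median of all genes tested (-0.11). TRIM22 is at the low end at -2.19 and TRIM36 at the high end at 0.71.

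Of the 10 genes called lower whose mean FPKM differed at least 2-fold, 5 are on a list of interferon-responsive TRIM genes. This list was chosen with earlier results of these data known. The 5 are TRIM22, TRIM21, TRIM56, TRIM6 and TRIM14. Those not on it include TRIM46 and TRIM59, which, like TRIM6, passed the filter only through the control libraries. Of the 11 TRIM genes on this list, 10 were tested and 7 were called lower (TRIM22, TRIM21, TRIM56, TRIM6, TRIM14, TRIM26 and TRIM69). The median log2 change of the 10 tested was -0.79. Over all genes tested, 25.2% were called lower and the median was -0.11. The 7 include TRIM6, which passed the filter only through the control libraries, and TRIM26 and TRIM69, whose calls were lost with either control left out. Of the 28 other TRIM genes tested, 11 were lower and 1 was higher, with a median of -0.42. The difference between these lists was not tested.

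TRIM22 (ENSG00000132274, chr11:5689689-5737089), an interferon-induced factor that restricts several viruses, was at 2.83, 4.47 and 2.84 FPKM in 3-NP libraries, against 20.3 and 17.1 FPKM in control libraries. The mean was 3.38 ± 0.943 FPKM in 3-NP libraries and 18.7 ± 2.3 FPKM in control libraries (SD, n = 3 and 2), and limma gave a log2 change of -2.19 (SE 0.20, adjusted p = 0.000498). It stood sixth among TRIM genes by mean level over all 5 libraries, and the highest 3-NP value was below the lowest control value. TRIM21 (ENSG00000132109, chr11:4384897-4393696), the cytosolic antibody receptor that sends antibody-coated virus to the proteasome, was at 2.99, 3.2 and 3.91 FPKM in 3-NP libraries, against 11.5 and 13.7 FPKM in control libraries. Its log2 change was -1.64 (SE 0.16, adjusted p = 0.000603), again with no overlap.

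TRIM56 (ENSG00000169871, chr7:101085439-101097967), a ligase that promotes signalling by cytosolic DNA, was at 3.11, 2.82 and 2.71 FPKM in 3-NP libraries, against 9.95 and 8.18 FPKM in control libraries. The log2 change was -1.37 (SE 0.15, adjusted p = 0.000835). The 3-NP values lay close together and all were below the control values. TRIM6 (ENSG00000121236, chr11:5596109-5612958), which builds free ubiquitin chains that activate the kinase encoded by IKBKE, was at 0.751, 0.883 and 0.538 FPKM in 3-NP libraries, against 2.76 and 2.78 FPKM in control libraries. Its log2 change was -1.13 (SE 0.15, adjusted p = 0.00173), -1.82 with a pseudocount of 0.1 and -1.95 with voom on reads. It shares 29.3% of its exon bases with the readthrough gene TRIM6-TRIM34, which was not analysed here, so its reads cannot be assigned with certainty.

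The smaller declines of this kind were in TRIM14, TRIM26 and TRIM69. TRIM14, an adaptor without a RING finger that joins the mitochondrial antiviral complex at MAVS, averaged 3.61 ± 0.375 FPKM in 3-NP libraries and 7.57 ± 0.206 FPKM in control libraries (log2 change -0.90, adjusted p = 0.00305). TRIM14 overlaps NANS, on the opposite strand, over 7.72% of its exon bases, and NANS was at 51.2, 59.7 and 66.3 FPKM in 3-NP libraries and 28 and 35.9 FPKM in control libraries, the opposite direction to TRIM14. TRIM26, which acts on nuclear IRF3, had a log2 change of -0.68 (adjusted p = 0.008), and TRIM69, which binds microtubules and restricts vesicular stomatitis virus, had one of -0.61 (adjusted p = 0.0117). TRIM26 had an adjusted p of 0.073 without control replicate 1 and 0.0526 without control replicate 2, and TRIM69 had 0.0917 and 0.104.

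TRIM5, TRIM25 and TRIM38, also on the list, did not pass the test. TRIM5, the retroviral capsid restriction factor, averaged 8.8 FPKM in 3-NP libraries and 8.42 FPKM in control libraries (log2 change 0.06, adjusted p = 0.775). TRIM22 lies within the span of TRIM5 on the opposite strand, and TRIM22 was called lower there while TRIM5 was not called. TRIM25, which ubiquitinates the RNA sensor RIG-I, had a log2 change of -0.34 (adjusted p = 0.145) with values of 12.8, 15.3 and 17.6 FPKM in 3-NP libraries and 20.5 and 18.3 FPKM in control libraries. TRIM38, a brake on Toll-like receptor signalling, had a log2 change of 0.06 (adjusted p = 0.781). TRIM34 was under the filter.

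The RefSeq promoter table for GRCh38 (250 bases before to 50 bases after each gene's start) held a promoter for 27 of the 38 tested genes. It held none for TRIM4, TRIM8, TRIM11, TRIM13, TRIM16L, TRIM22, TRIM24, TRIM27, TRIM28, TRIM29 and TRIM35, so these were not searched. The letters GAAA, any 2 bases and GAAA again, the core of the interferon-stimulated response element, were searched on both strands. They were found in the promoters of 8 of these 27 (TRIM2, TRIM5, TRIM14, TRIM16, TRIM21, TRIM26, TRIM44 and TRIM69), which is 29.6%. They were found in 3.57% of all 35116 promoters, in 4.38% of 27305 genes, and in 15 of 18 interferon-stimulated genes with a promoter in the table. Of the 8 TRIM genes with the letters 5 were called lower, and of the 19 without them 9 were. The share called lower over all genes tested was 25.2%. The letters TTC, any 3 bases and GAA, the core of the gamma-activated site, were found in 4 of the 27 (TRIM2, TRIM3, TRIM16 and TRIM46). This is 14.8%, beside 9.38% of all genes and 7.66% of all promoters. A match of letters is a description of these windows only. The 5 windows of genes on the interferon list are shown because 4 of them belong to genes called lower (TRIM14, TRIM21, TRIM26 and TRIM69) and 1 to a gene that was not called (TRIM5). Each is read 5′ to 3′ on the gene's strand, and capitals mark the bases that match the first motif as written or in reverse complement. Starts are those of RefSeq, and for TRIM5, TRIM26 and TRIM69 they lie inside the span that GENCODE gives. The TRIM14 window is chr9:98119223-98119268 (minus strand), that of TRIM21 is chr11:4393663-4393692 (minus strand, past the start), that of TRIM26 is chr6:30213568-30213617 (minus strand), that of TRIM69 is chr15:44736446-44736495 (plus strand) and that of TRIM5 is chr11:5685075-5685121 (minus strand).
TRIM14: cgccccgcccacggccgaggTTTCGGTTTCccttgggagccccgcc
TRIM21: ctgagcgGAAACTGAAAGTGAAAtagggag
TRIM26: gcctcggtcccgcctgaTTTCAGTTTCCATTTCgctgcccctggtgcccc
TRIM69: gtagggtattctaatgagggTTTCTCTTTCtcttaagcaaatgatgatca
TRIM5: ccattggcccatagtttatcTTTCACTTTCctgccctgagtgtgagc
TRIM21 and TRIM26 held 2 overlapping matches each, and the other 3 genes held 1.

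TRIM47 and TRIM65, neighbours on chromosome 17 with 1759 bases between them, were both lower in 3-NP cells. TRIM65 (ENSG00000141569, chr17:75880335-75897003), which ubiquitinates the RNA sensor encoded by IFIH1, was at 3.13, 2.64 and 3.59 FPKM in 3-NP libraries, against 8.41 and 9.95 FPKM in control libraries (log2 change -1.31, SE 0.16, adjusted p = 0.00127). TRIM47 (ENSG00000132481, chr17:75874161-75878575), another PRY-SPRY member, was at 1.11, 1.19 and 1.37 FPKM in 3-NP libraries, against 5.82 and 7.69 FPKM in control libraries. Its log2 change was -1.79 (SE 0.16, adjusted p = 0.000474), and no 3-NP library reached the control range for either gene. An antisense gene, AC087289.5, covers 51.5% of the exon bases of TRIM47, but was at 0.0353 FPKM or below in every library.

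The remaining members called lower without a listed link to interferon were TRIM44, TRIM58, TRIM16L, TRIM8, TRIM41 and TRIM68, beside TRIM28, TRIM46 and TRIM59 described with their classes. TRIM44 (ENSG00000166326, chr11:35662805-35818007), which has a ubiquitin-protease type zinc finger in place of a RING finger, was at 3.1, 5.24 and 4.01 FPKM in 3-NP libraries and at 9.61 and 7.7 FPKM in control libraries (log2 change -0.93, SE 0.20, adjusted p = 0.0105). All 3-NP values were below both control values. The log2 change was -0.86 for TRIM58 (SE 0.20, adjusted p = 0.0132) and -0.71 for TRIM8 (SE 0.13, adjusted p = 0.00551). TRIM16L, a shortened paralog of TRIM16 whose reads may be shared with it, had a log2 change of -0.79 (adjusted p = 0.00911), while TRIM16, which takes part in the clearance of damaged membranes, had one of -0.37 and was not called (adjusted p = 0.0553). TRIM41, which acts on protein kinase C, had a log2 change of -0.65 (adjusted p = 0.013), and TRIM68, a co-activator of the androgen receptor, had one of -0.61 (adjusted p = 0.0232). TRIM8 overlaps AL391121.1 on the opposite strand over 14.1% of its exon bases, a gene at 4.49 to 11 FPKM in 3-NP libraries and 2.21 to 6.98 FPKM in control libraries. Calls were lost without control replicate 1 for TRIM44 (adjusted p = 0.0894), TRIM58 (0.103) and TRIM68 (0.175). They were lost without control replicate 2 for TRIM16L (adjusted p = 0.0785), TRIM8 (0.0618), TRIM41 (0.132) and TRIM68 (0.0772), and without 3-NP replicate 2 for TRIM68 (0.0621).

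**Figure D3:**
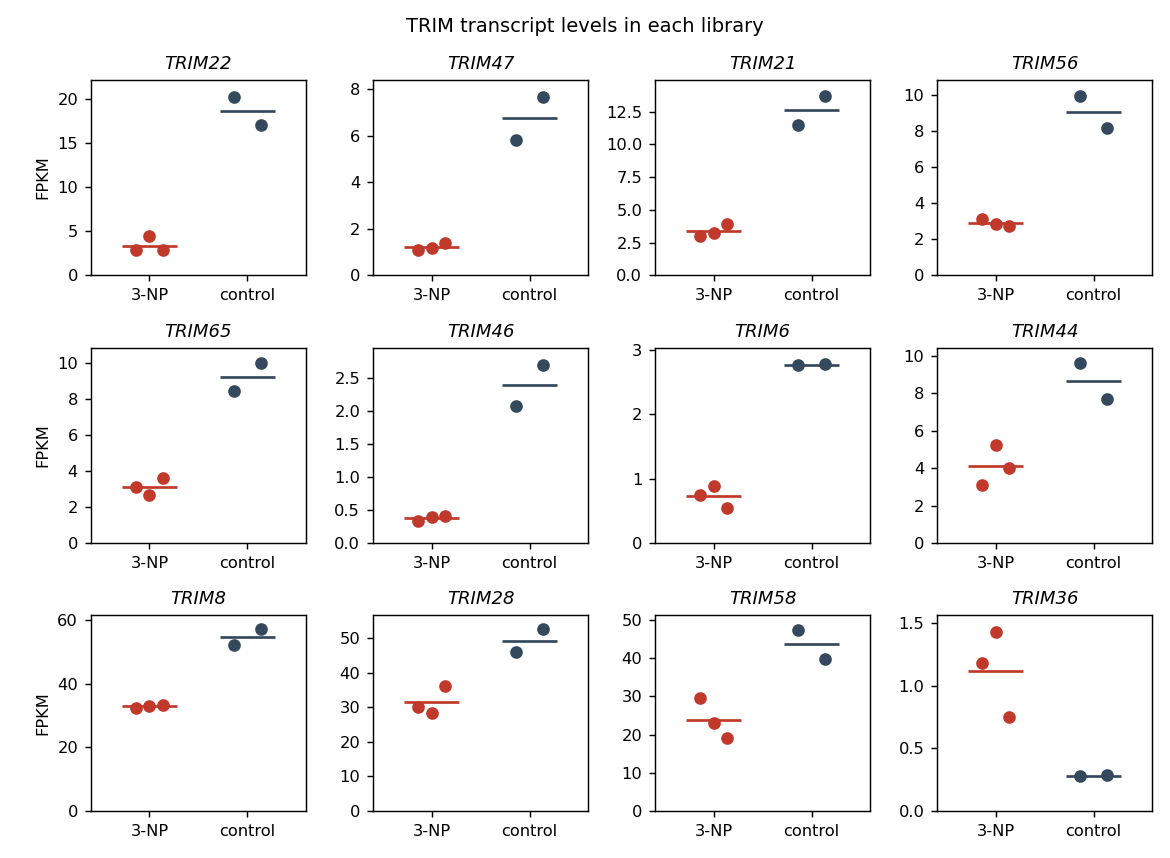
Level of the TRIM genes whose values are given in full, as FPKM, one point per library with a line at the group mean, 3-NP libraries (n = 3) left of control libraries (n = 2). Each gene shown that was called lower has all 3-NP points under its control points, and TRIM36 has all 3-NP points above them.

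Of the members with a PHD finger and bromodomain, which silence or activate chromatin, TRIM28 was lower and TRIM24 and TRIM33 were not called. TRIM28 had a log2 change of -0.63 (SE 0.16, adjusted p = 0.0174), and it was not called without 3-NP replicate 2 (adjusted p = 0.0541), control replicate 1 (0.0654) or control replicate 2 (0.131). TRIM24, a cofactor of nuclear receptors, was at 2.15, 2.13 and 0.996 FPKM in 3-NP libraries and at 3.09 and 2.64 FPKM in control libraries (log2 change -0.52, adjusted p = 0.106). TRIM33, which acts in SMAD signalling, was at 2.03, 2.23 and 1.18 FPKM in 3-NP libraries and at 3.62 and 2.44 FPKM in control libraries (log2 change -0.52, adjusted p = 0.0957). Both were lowest in 3-NP replicate 3. TRIM66, the testis-associated member of this class, was under the filter at 0.426, 0.352 and 0.231 FPKM in 3-NP libraries and 0.927 and 0.612 FPKM in control libraries.

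Genes whose products work with TRIM28 in heterochromatin formed a list of 10. All 10 were tested, 6 were lower and none was higher, with a median log2 change of -0.64. Over all genes tested, 25.2% were lower and 15.5% higher, with a median of -0.11. Without control replicate 1 none of the 10 was called lower, and without control replicate 2 the count was 4. SETDB1, the histone methyltransferase among the 6, passed the filter only through the control libraries. FAM208A, a component of the HUSH silencing complex, had a log2 change of -1.19 (adjusted p = 0.00496), MPHOSPH8, another component, had one of -0.74 (adjusted p = 0.0049), and CHD3, a nucleosome remodeller, had one of -0.65 (adjusted p = 0.00809).

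The only TRIM gene called higher was TRIM36 (ENSG00000152503, chr5:115124762-115180546), a microtubule-associated ligase with COS, fibronectin and PRY-SPRY domains. It was at 1.18, 1.43 and 0.747 FPKM in 3-NP libraries, against 0.279 and 0.284 FPKM in control libraries, and every 3-NP value was above both control values. The mean was 1.12 ± 0.345 FPKM in 3-NP libraries and 0.282 ± 0.00364 FPKM in control libraries (SD, n = 3 and 2), and the log2 change was 0.71 (SE 0.18, adjusted p = 0.017), 1.63 with a pseudocount of 0.1 and 1.92 with voom on reads. It was not called without control replicate 1 (adjusted p = 0.129), control replicate 2 (0.116) or the low-value filter (0.0626), and it was not tested without 3-NP replicate 1 or 2. TRIM46 (ENSG00000163462, chr1:155173787-155184971), of the same domain class, organises parallel microtubules in axons and was at 0.339, 0.39 and 0.41 FPKM in 3-NP libraries, against 2.08 and 2.71 FPKM in control libraries. Its log2 change was -1.29 (SE 0.15, adjusted p = 0.00107), -2.37 with a pseudocount of 0.1 and -2.63 with voom, the opposite direction to TRIM36. TRIM46 passed the low-value filter only through the control libraries and TRIM36 only through the 3-NP libraries. A difference in these directions was therefore built into their selection. The muscle RING-finger members TRIM54, TRIM55 and TRIM63 were under the filter.

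The members with a membrane anchor, TRIM13 and TRIM59, had log2 changes of -0.42 (adjusted p = 0.051) and -0.57 (SE 0.14, adjusted p = 0.0161), so TRIM59 was called and TRIM13 was not. The change of TRIM59 was -1.03 with a pseudocount of 0.1 and -1.13 with voom. TRIM59 shares 19.8% of its exon bases with SMC4 on the opposite strand, a gene at 0.67, 2.37 and 1.46 FPKM in 3-NP libraries and 3.93 and 2.49 FPKM in control libraries, so its reads are uncertain if strand was not used in counting. It was not called without the low-value filter (adjusted p = 0.0522), and it was not tested without either control. The members with NHL repeats, TRIM2 and TRIM3, had log2 changes of -0.13 and 0.01 and were not called (adjusted p = 0.75 and 0.961). TRIM2, which acts on neurofilaments, was lowest in 3-NP replicate 3, at 2.96 FPKM against 5.42 and 6.79 FPKM in the other 3-NP libraries and 6.66 and 4.31 FPKM in control libraries.

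The remaining tested genes did not pass the test. TRIM35, which binds pyruvate kinase, was at 9.91, 10.5 and 12 FPKM in 3-NP libraries and at 8.22 and 7.8 FPKM in control libraries, with no overlap and a log2 change of 0.39 (adjusted p = 0.0625). TRIM62, a regulator of epithelial polarity, had a log2 change of -0.42 (adjusted p = 0.0573). TRIM39 had one of -0.30 (adjusted p = 0.158) and shares 29.5% of its exon bases with the readthrough gene TRIM39-RPP21. TRIM23, whose carboxyl end is an ARF GTPase, had one of 0.30 (adjusted p = 0.309), and TRIM37, which limits centriole assembly, had one of 0.16 (adjusted p = 0.42). TRIM4, TRIM11, TRIM27, TRIM29 and TRIM61 had log2 changes between -0.18 and 0.10, with adjusted p-values of 0.393, 0.867, 0.58, 0.671 and 0.928. TRIM61 shares 33.2% of its exon bases with AC106872.5, so its reads are uncertain. Libraries of the groups overlapped for TRIM23, TRIM37 and each of these 5.

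By domain class, and beside 25.2% lower and 15.5% higher over all genes tested, the PRY-SPRY members made up 19 of the genes tested, and 10 of them were lower and none higher, with a median log2 change of -0.61. Of 5 tested members without a RING finger (TRIM14, TRIM16, TRIM16L, TRIM29 and TRIM44) 3 were lower. Of 3 without a domain at the carboxyl end (TRIM8, TRIM56 and TRIM61) 2 were lower.

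Of the 30 genes under the filter, 5 averaged 0.2 FPKM or more in either group (TRIM7, TRIM32, TRIM45, TRIM52 and TRIM66), and 25 averaged less in both groups. In those 25 no library exceeded 14 reads or 0.285 FPKM. TRIM75P was listed at 0 in all 5 libraries. On a gene of 4 kb, 3 reads correspond to 0.0397 to 0.042 FPKM, the level that a count of 0 allows, and this covers counting error only. TRIM32, mutated in a limb-girdle muscular dystrophy, was at 0.14, 0.695 and 0.955 FPKM in 3-NP libraries and 0.734 and 0.89 FPKM in control libraries, so 3-NP replicate 1 stood apart. TRIM45 was at 0.715, 0.847 and 1.09 FPKM in 3-NP libraries and 0.562 and 0.706 FPKM in control libraries, without overlap.

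The genes of pathways in which TRIM proteins work were read from the same fit, in which 25.2% of all genes tested were lower and 15.5% higher, with a median log2 change of -0.11. Of 23 interferon-stimulated genes, 22 were tested, 13 were lower and 1 was higher, with a median log2 change of -1.18. The count of 13 was 6 without control replicate 1 and 4 without control replicate 2, and no gene was called higher in either case. Of the 13, 5 (IFIT2, IFI44L, MX1, MX2 and RSAD2) were under 1 FPKM in every 3-NP library and passed the filter only through the control libraries. IFIT3, which binds antiviral signalling complexes, was at 1.3, 2.15 and 2.03 FPKM in 3-NP libraries and 20.7 and 20.2 FPKM in control libraries (log2 change -2.94, adjusted p = 0.000179). IFIT1 and IFIT2, related RNA-binding proteins, had log2 changes of -2.43 (adjusted p = 0.000179) and -2.80 (adjusted p = 0.000185). The gene called higher was OASL, a sensor-binding relative of the oligoadenylate synthetases, chosen to complete the count after its value was seen (log2 change 0.95, adjusted p = 0.0164). The list summed to 452, 941 and 1080 FPKM in 3-NP libraries, against 1190 and 1910 FPKM in control libraries, so 3-NP replicate 1 was the lowest. The largest parts of this sum were IFI6, ISG15, IFITM3 and IFI27, at means of 515, 360, 327 and 131 FPKM in control libraries. None of these was called (limma adjusted p = 0.116, 0.0601, 0.162 and 0.166), so the sum does not describe the genes called lower. ISG15, the ubiquitin-like modifier, was at 76.3, 186 and 215 FPKM in 3-NP libraries and 262 and 457 FPKM in control libraries (adjusted p = 0.0601).

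Of 14 genes of RIG-I and STING signalling, 13 were tested, 8 were lower and none was higher, with a median log2 change of -0.95. TMEM173, which encodes STING, was at 4.18, 3.29 and 2.92 FPKM in 3-NP libraries and 15.5 and 17.8 FPKM in control libraries (log2 change -1.99, adjusted p = 0.000393). DDX58, which encodes RIG-I, had a log2 change of -1.89 (adjusted p = 0.000993), and MAVS, the mitochondrial adaptor of both RNA sensors, had one of -1.34 (adjusted p = 0.000883).

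Of 9 genes of interferon signalling, 8 were tested and the median log2 change was -0.08. The count of 3 lower genes was 1 without control replicate 1, and no gene was called higher without control replicate 2. STAT2, IFNAR1 and TYK2 were lower (log2 changes of -1.01, -0.90 and -0.49 with adjusted p-values of 0.00274, 0.0116 and 0.0294) and JAK1, a receptor-associated kinase, was higher (log2 change 0.78, adjusted p = 0.014). Of 13 E2 enzymes, 12 were tested, 2 were lower and 2 were higher, with a median of -0.12, close to the -0.11 of all genes, and 1 gene was called lower and none higher without control replicate 2. UBE2E1 and UBE2L6, the second of which also carries the modifier ISG15, had log2 changes of -0.99 (adjusted p = 0.00304) and -0.72 (adjusted p = 0.0102), and UBE2W and UBE2D1 had log2 changes of 0.80 (adjusted p = 0.0113) and 0.63 (adjusted p = 0.0196). TRIM-type proteins under other symbols (MID1, MID2 and PML) were not called. Over these 6 lists, 32 genes were called lower, and 15 and 19 were without control replicates 1 and 2.

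**Figure D4:**
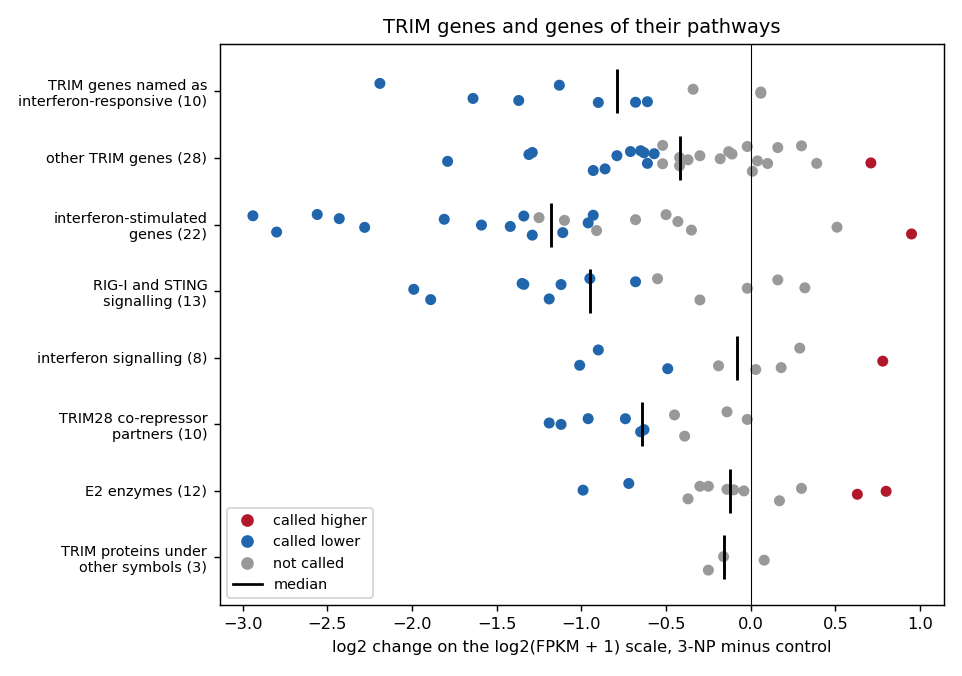
Fitted log2 change of the TRIM genes and of 6 lists of pathway genes, 3-NP minus control, one point per gene tested, with the number tested in brackets and a bar at the median. The medians lie between -1.18 for interferon-stimulated genes and -0.08 for interferon signalling.

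The coefficient of variation over the 3-NP libraries had a median of 13.9% over the tested genes, with a range of 1.58% (TRIM8) to 38.4% (TRIM2), and over the control libraries it had a median of 11.2%. The library with the lowest value of the 3 was 3-NP replicate 1 for 19 genes, replicate 2 for 8 and replicate 3 for 11. The TRIM median over the tested genes, taken as each 3-NP library against the control mean, was -0.493, -0.493 and -0.50 on the log2 scale. These 3 values use the same 2 control libraries.

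The calls were compared over 16 alternative settings. Of the 19 called genes, 8 kept their call in every alternative that gave a value, and 6 of these (TRIM14, TRIM21, TRIM22, TRIM47, TRIM56 and TRIM65) were tested in all 16. The other 2, TRIM6 and TRIM46, could not be tested without a control library. Leaving out control replicate 1 ended 7 calls and leaving out control replicate 2 ended 8, with 9 and 8 genes called lower, and 5 genes lost their call in both cases. Other settings also ended calls: no low-value filter for TRIM58 (adjusted p = 0.0542) and TRIM68 (0.0688), quantile normalization for TRIM68 (0.0767) and TRIM69 (0.051), removal of the length trend for TRIM41 (0.13) and TRIM69 (0.0545), and the replicate block for TRIM59 (0.0576). In the opposite sense 4 uncalled genes (TRIM13, TRIM16, TRIM35 and TRIM62) passed in at least 1 setting. In each of the 16 settings the share of TRIM genes called lower was above that of all genes tested, for example 25.7% beside 9.46% without control replicate 1 and 22.9% beside 10.5% without control replicate 2.

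**Figure D5:**
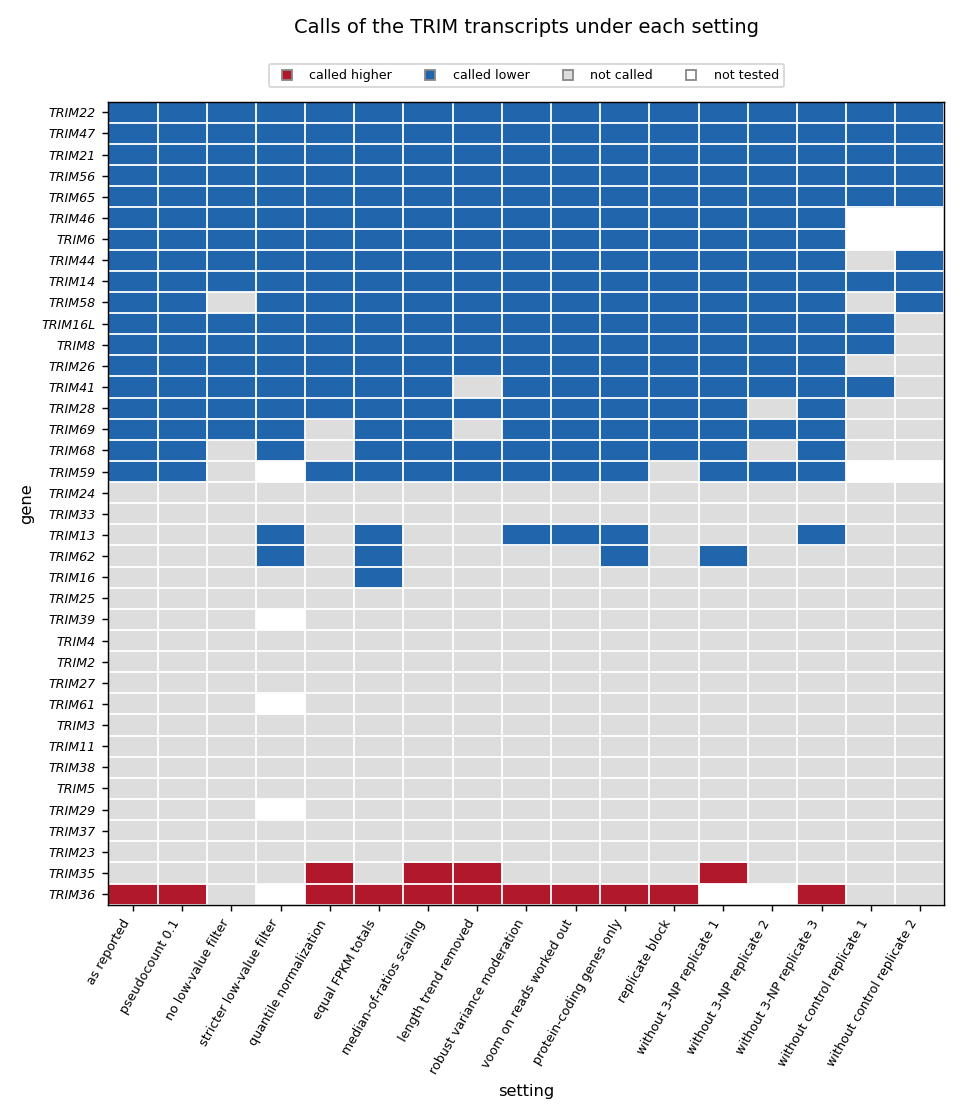
Call of each TRIM gene tested, one row per gene and one column per setting, with blue for called lower in 3-NP, red for called higher, grey for not called and white for not tested. The top 5 rows, TRIM22, TRIM47, TRIM21, TRIM56 and TRIM65, are blue in every column, and the columns without a control library hold the fewest calls.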

How the data were processed

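The libraries were stranded mRNA preparations, per the labels' protocols. GRCh38, HISAT2 2.1, Trimmomatic 0.39 and bcl2fastq 2.17 are listed in the submitters' processing notes. How reads were counted, with which annotation and strand setting, is not given in the sources used here, so overlapping and near-identical genes are uncertain. The deposited files hold 1 value per gene, read as FPKM from the values, because 89.8% to 92.7% of values times gene length (GENCODE 29 exon union) fell within 0.05 read of a whole number. A count test planned for count files was therefore not used. Genes that reached 1 FPKM in 2 libraries were fitted as log2(FPKM + 1) in limma 3.58.1 under R 4.3.3, using its mean-variance trend. Group was the only term (3 residual degrees of freedom), and the Benjamini-Hochberg adjustment ran over all genes tested, with calls at 0.05. This scale understates changes of low genes. Figures were drawn with matplotlib 3.10.9. The labels do not name separate cultures, so a p-value here measures only the spread among the 5 libraries, possibly technical.

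Members and lists were chosen with earlier results of these data known. Every tested TRIM gene is named. By rule, values in every library are given for the 8 largest rises and falls among called genes and for the 3 of highest level. They are also given for TRIM2, TRIM24, TRIM25, TRIM32, TRIM33, TRIM35, TRIM45 and TRIM66, which this rule did not include. Up to 3 called genes of smallest p are named from each pathway list. Other list genes named (TYK2, UBE2D1, OASL, ISG15, IFI6, IFI27, IFITM3, IFI44L, MX1, MX2, RSAD2 and SETDB1) complete a count or were singled out after their values were seen. FOXL2, SMARCA2 and SMARCA4 are named whatever their result. Alternatives changed the pseudocount, filter, scaling, variance moderation, gene set, block, count model (voom on reads) or left out a library.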

Additional observations from a re-analysis of the deposited data

How the results depend on the processing

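Leaving out either of the 2 control libraries leaves 1, which is then assumed to vary like the 3-NP group. Depth limits the members with few reads (TRIM46 had 29 in 3-NP replicate 1). The TRIM median, -0.52 as reported, was -0.687 with a pseudocount of 0.1, -0.057 without a filter, -0.609 with the stricter filter, -0.362 with quantile normalization, -0.593 with equal totals, -0.425 with median-of-ratios scaling, -0.327 with the length trend removed and -0.686 with voom, and -0.565 to -0.389 with 1 library left out. TRIM genes called higher numbered 0 without a filter or with the stricter filter and 2 with quantile normalization, median-of-ratios scaling or the length trend removed, and 0 to 1 with 1 library left out. With 1 library left out, TRIM genes called lower ranged from 8 to 19, genes called from 1814 to 5254 (4833 as reported) and pathway genes called lower from 15 to 34. The cause was not tested, except that a library left out leaves fewer samples. With the replicate number as a block, 17 TRIM genes were lower and 1 higher, the median was -0.462 and 4347 genes were called. Number 3 occurs only in the 3-NP group, so 3-NP replicate 3 adds nothing to the changes fitted with the block. The median without 3-NP replicate 3 was also -0.462, so these 2 settings are not independent. Only 2 numbers are shared and the labels tie them to nothing, so they were not taken as pairs; the correlations of same-numbered libraries, 0.157 and -0.351, cannot decide this, since 2 controls deviate as mirror images. Uncalled genes near 0 changed sign: TRIM2 to 0.02 with quantile normalization, 0.06 with the length trend removed and 0.15 with the block; TRIM61 to 0.14 with quantile normalization and 0.07 with median-of-ratios scaling; TRIM27 to 0.01 with median-of-ratios scaling and 0.06 with the length trend removed; and, with equal totals, TRIM11 to -0.03, TRIM3 to -0.07, TRIM38 to -0.02 and TRIM5 to -0.04. TRIM3 was -0.01 with the block. With 1 library left out the ranges were -0.39 to 0.15 for TRIM2, -0.06 to 0.10 for TRIM3, -0.06 to 0.18 for TRIM5, -0.21 to 0.30 for TRIM11, -0.03 to 0.23 for TRIM29, -0.04 to 0.13 for TRIM38 and -0.13 to 0.09 for TRIM61. No called gene changed sign in any of the 16 alternatives. In all, 26 single-gene values lost a call, 15 gained one and 24 changed sign.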
